A study of Capra hircus with 2 samples.

Results

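The cells described here are dermal papilla-like cells of goat skin, chosen by transcripts of RSPO3, WIF1, BMP3, CRABP1, ALX4 and CXCL13. A cell was a member when these 6 genes together gave at least 3 unique molecular identifiers (UMIs, each the mark of 1 captured RNA molecule) and at least 3 per 10000 of the UMIs of the cell, with at least 2 of the genes detected. The summed type I and type III collagen genes COL1A1, COL1A2 and COL3A1 had to stay under 50 per 10000, and the epidermal keratins KRT14, KRT5, KRT1 and KRT10 under 100 per 10000. The rule found 57 of 13051 kept cells, 48 of 3443 in the coarse-type library (CT-LCG) and 9 of 9608 in the fine-type library (FT-LCG). Members were thus 1.39% of the kept cells in CT-LCG, with an exact binomial 95% interval of 1.03 to 1.84, and 0.0937% in FT-LCG, with an interval of 0.0428 to 0.178.

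The dermal papilla is a small knot of mesenchymal cells at the base of the hair follicle, wrapped by the epithelial matrix whose division makes the hair shaft. Its cells secrete Wnt pathway proteins, bone morphogenetic proteins (BMPs), fibroblast and insulin-like growth factors and their antagonists, and these signals set the timing and the extent of growth of the hair. RSPO3 is an R-spondin, a secreted enhancer of Wnt signalling, while WIF1 binds Wnt ligands and keeps them from their receptors. BMP3 is a secreted member of the BMP family, CRABP1 binds retinoic acid within the cell, ALX4 is a homeodomain transcription factor of mesenchyme and CXCL13 is a chemokine that attracts B cells.

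Skin was taken over the shoulder blade of 2 Liaoning cashmere goats in anagen, the growing phase of the hair cycle, 1 goat of coarse and 1 of fine cashmere, with no treatment and no age or sex given in the sources used here. Each goat gave 1 single-cell library, and fibre type was read from the deposited table of kept cells because the sample labels do not name it. Library, goat and fibre type cannot be told apart, so each library was described separately and no test between them was made. The depth of CT-LCG was 27890472 UMIs over its kept cells, with a median of 2314 per cell, and that of FT-LCG 85400323, with a median of 6121.5.

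The 48 CT-LCG members held 308701 UMIs and the 9 FT-LCG members 67385. Their median depth was 5883.5 UMIs per cell in CT-LCG, between 1473 and 19874, and 5431 in FT-LCG, between 4130 and 19670. The libraries shared 11 barcode sequences among kept cells, and 1 member, an FT-LCG cell of 5431 UMIs, had the barcode sequence of a CT-LCG cell that was no member. Levels are given as summed UMIs per 10000 UMIs of the group with exact Poisson 95% intervals where stated, and all intervals cover counting error only. Deep cells therefore weigh more in a level, and the deepest FT-LCG member held 19670 of the 67385 UMIs.

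Members were set beside other groups of cells of the same library. Collagen-high cells, kept cells outside the members with 50 or more collagen UMIs per 10000 and under 100 keratin UMIs, numbered 9 in the CT-LCG library and 27 in the FT-LCG library. Endothelial cells (18 and 108) and contractile cells (8 and 52), found by markers of vessel lining and of smooth muscle and pericytes, gave further levels. In FT-LCG both groups also held epithelial genes. Endothelial cells had 199.9 UMIs per 10000 of hair matrix, shaft and inner root sheath genes, with at least 3 UMIs in 24 of 108 cells. Contractile cells had 51.9 of keratinocyte genes, and VIM was found in 35 of 52. The source of these UMIs was not tested. Of the cells in these 4 groups, members made up 48 of 83 in CT-LCG (57.8%, interval 46.5 to 68.6) and 9 of 195 in FT-LCG (4.62%, interval 2.13 to 8.58), with the 1 FT-LCG cell that was both endothelial and contractile counted once. The order of the groups by size thus differed, with members the most numerous in CT-LCG and endothelial cells in FT-LCG, and this was not tested because each type had 1 library.

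The values that chose the cells are given first, as a description. RSPO3 stood at 17.4 UMIs per 10000 in CT-LCG members (interval 16.0 to 19.0) and at 8.61 in FT-LCG members (6.54 to 11.1), and it was found in 45 of 48 and 7 of 9 cells. WIF1 stood at 8.78 and 5.49 in 35 and 9 cells, and BMP3 at 3.63 and 2.97 in 37 and 7 cells. Most members therefore carried both Wnt modulators, RSPO3 together with WIF1 in 34 of 48 and 7 of 9 cells and at least 1 of them in 46 and 9.

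CRABP1 stood at 8.91 UMIs per 10000 in CT-LCG members, in 38 cells, and at 4.75 in FT-LCG members, in 6 cells. In FT-LCG the collagen-high cells held more of it, 7.87 per 10000 in 16 of 27 cells, while the CT-LCG collagen-high cells had 1.78. ALX4 was scarce, at 0.583 in 12 CT-LCG cells and 0.742 in 3 FT-LCG cells. CXCL13 had no UMI in CT-LCG members, and all of its 131 UMIs in FT-LCG members lay in 1 cell.

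**Figure D1:**
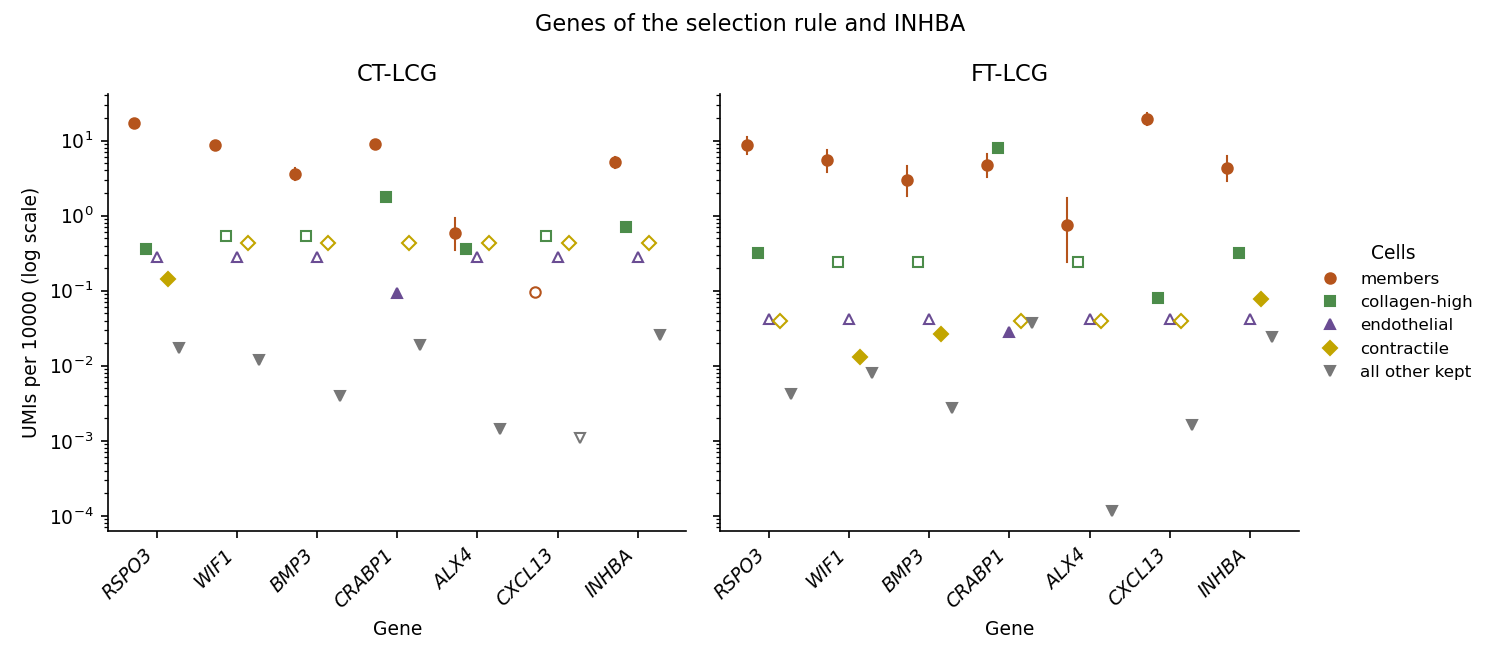
Levels of the 6 genes of the selection rule and of INHBA in UMIs per 10000 (y axis, log scale) for 5 groups of cells, CT-LCG left and FT-LCG right. Filled symbols are measured levels, open symbols mark the level that 3 counts would give where the count was 0, and lines on the members are exact Poisson 95% intervals. INHBA, which the rule did not use, stood at 5.15 and 4.30 in the members and below 1 in every other group.

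The 6 genes gave between 3 and 78 UMIs in a CT-LCG member, with a median of 37.8 per 10000, and between 9 and 143 in an FT-LCG member, with a median of 30.5. Of the CT-LCG members 8, 15, 19 and 6 cells showed 2, 3, 4 and 5 of the genes, and of the FT-LCG members 1, 3, 3 and 2 cells did. In CT-LCG members RSPO3 gave 44.3% of the rule UMIs, and in FT-LCG members it gave 20.5% and the CXCL13 of the 1 cell 46.3%. Over the 48 CT-LCG members, which come from 1 library, the Spearman rho of RSPO3 with WIF1 was 0.50, with BMP3 0.42 and with CRABP1 -0.20. The cells were chosen on the sum and number of these same genes, which shapes these values, so they are a description only.

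Cells on both sides of the limits of the rule were then compared. Nearest to the collagen limit, a CT-LCG member had 45.7 collagen UMIs per 10000 and the nearest cell that failed only there had 52.8, while in FT-LCG these values were 36.0 and 311.5. Nearest to the keratin limit, the values were 99.0 inside and 102.4 outside in CT-LCG, where 6 cells failed only there, and 53.9 and 265.2 in FT-LCG, where 2 cells did. In CT-LCG 2 members had the least allowed 3 rule UMIs and 2 cells missed membership with 2 UMIs. A second rule gene was the only thing lacking in 2 CT-LCG and 7 FT-LCG cells, and 6 of the 7 FT-LCG cells carried CRABP1 alone.

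**Figure D2:**
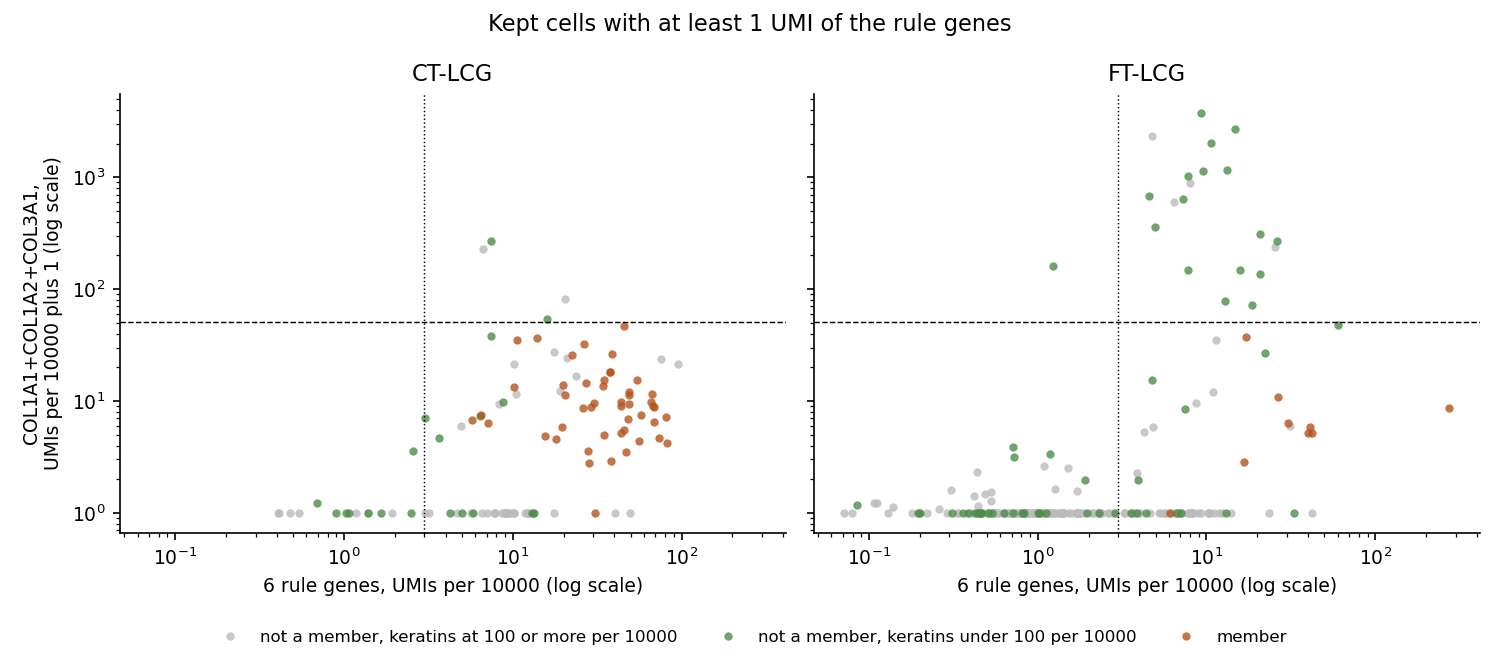
Every kept cell with at least 1 UMI of the 6 rule genes, CT-LCG left and FT-LCG right. The x axis gives the rule genes and the y axis the 3 collagen genes plus 1, both in UMIs per 10000 on log scales. The dotted line marks 3 per 10000 of the rule genes and the dashed line the collagen limit of 50. Members are 48 of 115 such cells in CT-LCG and 9 of 226 in FT-LCG.

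INHBA was the only one of the named markers that the rule did not use. It was named with earlier results of these data known, so its level is a description and no check of the label. INHBA encodes the beta A subunit of activin A and of inhibin, which dermal papilla cells are known to make. Its level was 5.15 UMIs per 10000 in CT-LCG members (interval 4.38 to 6.02) and 4.30 in FT-LCG members (2.88 to 6.18), found in 38 of 48 and 8 of 9 cells. In collagen-high cells INHBA stood at 0.713 and 0.321, so members were 7.23-fold higher in CT-LCG (interval 2.77 to 26.9) and 13.4-fold higher in FT-LCG (4.71 to 52.5). All 4 INHBA UMIs of the CT-LCG collagen-high cells lay in 1 cell, and that cell failed the rule by its collagens alone. No endothelial cell had a UMI of INHBA, 0 of 18 in CT-LCG, which allows a share of cells with a UMI of up to 16.7%, and 0 of 108 in FT-LCG, which allows up to 2.78%, at median depths of 4898 and 3661 UMIs. These limits hold for cells with a UMI, not for cells that express the gene.

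Of 25 other dermal papilla genes, INHBA among them, 21 had a UMI in a member and only 5 were measured against collagen-high cells, which means that the mean of the 2 levels was at least 0.5 per 10000 in each library. A gene was called higher or lower where it differed at least 2-fold in the same direction in both libraries. INHBA, HHIP, TRPS1 and SOX18 were called higher and VCAN lower, and of all 2212 genes measured 8.18% were called higher and 10.4% lower. A gene that is scarce in one group is measured through its level in the other, as INHBA, HHIP and SOX18 were through the members, so the counts and medians of lists here and in later paragraphs describe the genes that were measured and nothing is read from their size. The median log2 ratio of the 5 genes was 2.25 for CT-LCG and 3.60 for FT-LCG, beside 0.06 and 0.15 for all genes measured. The classical papilla genes SOX2, CORIN, FRZB and EDN3 had no UMI in any member, and ALPL, the alkaline phosphatase used to stain the papilla, had 1. In all other kept cells of CT-LCG and FT-LCG, SOX2 had 6 and 16 UMIs, CORIN 1 and 8, and FRZB 17 and 25. EDN3 had 48 and 259 there and ALPL 6 and 5, so the counts in members do not show absence.

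HHIP, a membrane protein that binds hedgehog ligands and limits their action, stood at 3.98 in CT-LCG members and 2.82 in FT-LCG members. Collagen-high cells had 0.356 in CT-LCG and no UMI in FT-LCG, so members were 11.2-fold higher in CT-LCG (interval 3.03 to 93.4, against 2 UMIs) and at least 11.7-fold higher in FT-LCG, against the level that 3 counts in the whole group would give. No endothelial or contractile cell of either library carried HHIP, and in members it was found in 39 of 48 and 6 of 9 cells. TRPS1, a GATA-type transcriptional repressor of hair and skeletal development, stood at 5.48 and 3.27 in members against 1.07 and 1.61 in collagen-high cells. Its 2.03-fold difference in FT-LCG was just past the call. That call was lost when levels were averaged over cells (log2 ratio 0.87) and when cells were thinned to 1000 UMIs (0.39). It was also lost when members were limited to under 25 collagen UMIs per 10000 (0.93). In CT-LCG the log2 ratio of TRPS1 was 2.25, and in thinned cells it was 0.82, also short of the call.

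SOX18, a transcription factor of vessels and of the dermal papilla, stood at 3.92 in CT-LCG members and 11.4 in FT-LCG members, against 1.25 and 0.401 in collagen-high cells. Endothelial cells also carried it, at 1.68 and 3.95 per 10000 in 7 of 18 and 63 of 108 cells. The endothelial markers were nevertheless at or near 0 in members, with 1 UMI of PLVAP in CT-LCG and none of PECAM1, CDH5, VWF, KDR, TEK, CLDN5 or EMCN in either library. In CT-LCG the 2-fold call of SOX18 was lost when levels were averaged over cells (log2 ratio 0.93) and when cells were thinned (0.69). VCAN, a proteoglycan of the papilla matrix, was 4.78-fold lower in CT-LCG members than in collagen-high cells (1.49 against 7.13) and 2.76-fold lower in FT-LCG members (1.48 against 4.09). Without the deepest FT-LCG member its log2 ratio there was -0.91, short of the call.

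The remaining papilla genes were too scarce to be measured, and their UMIs are given as found. LEF1, a partner of beta-catenin on DNA, stood at 1.04 and 0.742 in members of CT-LCG and FT-LCG, NOG, a BMP antagonist, at 0.616 and 0, and RSPO1 at 0.939 and 0.297. FGF10, a growth factor of mesenchyme, stood at 0.713 in 16 of 48 CT-LCG cells and at 0.148 in 1 of 9 FT-LCG cells. FGF7 had 1 UMI in CT-LCG members and 16 in FT-LCG members, all 16 in 2 cells. The hedgehog receptor and target PTCH1 stood at 0.356 and 1.93, and the hedgehog effector GLI1 at 0.551 and 0.297.

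Few of the Wnt pathway genes outside the rule were measured. WNT5A and NKD2 were called higher, beside 8.18% of all genes measured, and each call was lost in 1 library in thinned cells. Of 15 Wnt ligands 6 had a UMI in members and 1, WNT5A, was measured. WNT5A, a ligand that mostly acts without beta-catenin, stood at 2.24 in CT-LCG members and 3.41 in FT-LCG members against 0.178 and 1.12 in collagen-high cells, and it was called higher, by 12.5-fold in CT-LCG (interval 2.18 to 503, against 1 UMI) and by 3.04-fold in FT-LCG. In thinned cells its log2 ratio in CT-LCG was 0.09, so the call was lost. None of 20 Wnt receptors and co-receptors passed the filter, although 19 had a UMI in members, and their summed level was 3.53 in CT-LCG members against 5.34 in collagen-high cells, and 4.16 against 4.57 for FT-LCG.

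Among the Wnt antagonists outside the rule 2 of 11 present in the matrix were measured and neither was called. APCDD1, a membrane inhibitor of Wnt signalling in the follicle, stood at 7.84 and 6.53 in members against 0.534 and 4.25 in collagen-high cells, with log2 ratios that passed 1 in CT-LCG only. SFRP1, a secreted Frizzled-related protein, stood at 1.72 and 4.01 against 0.891 and 0.0803. Each missed the 2-fold limit in 1 library, APCDD1 in FT-LCG (1.53-fold, interval 1.005 to 2.33) and SFRP1 in CT-LCG (1.93-fold, interval 0.776 to 6.18, which does not exclude equal levels).

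NKD2, which binds Dishevelled and restrains Wnt signalling within the cell, was the Wnt effector with the largest difference. It stood at 5.41 in CT-LCG members and 6.38 in FT-LCG members against 0.178 and 0.241, or 1 and 3 UMIs, in collagen-high cells. Members were 30.4-fold higher in CT-LCG (interval 5.38 to 1207) and 26.5-fold higher in FT-LCG (8.48 to 134), but in thinned cells the FT-LCG log2 ratio was 0.79 and the call was lost. NKD2 was found in 40 of 48 CT-LCG members but in 4 of 9 FT-LCG members, where those 4 cells held 9 to 12 UMIs each and the other 5 none. The other measured members of the list, beta-catenin itself (CTNNB1) and TCF7L2, were not called, with 1.49 and 2.52 for CTNNB1 in members against 1.25 and 1.28 in collagen-high cells.

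Of the BMP, activin and transforming growth factor beta ligands outside the rule, 3 of 11 were measured and INHBA was the one called higher. BMP7 stood at 2.56 and 2.08 in members against 1.96 and 0.241 in collagen-high cells. TGFB2 was low in both groups, at 0.194 and 0.742 in members and 0.891 and 0.321 in collagen-high cells. BMP4, a ligand of papilla and matrix, was not measured and stood at 0.486 and 1.04 in members.

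The antagonists of these ligands went in opposite directions. FST, or follistatin, which binds activin, was called higher, at 4.31 and 3.12 in members against 1.07 and 0.161 in collagen-high cells (4.03-fold and 19.4-fold). It was found in 25 of 48 CT-LCG members, of which 1 reached 56.0 per 10000, and in thinned cells its log2 ratio in CT-LCG was 0.02. FSTL1, a follistatin-like protein of fibroblasts, was called lower, at 0.907 and 0.742 against 5.17 and 8.35. TGFBR3, the co-receptor betaglycan and the 1 receptor of 10 that was measured, was also called lower, from 7 and 2 UMIs in members, the 2 in 1 FT-LCG cell. That call was lost in FT-LCG in thinned cells (log2 ratio -0.05), without the deepest member and with at least 5 rule UMIs and 3 rule genes (-0.82 for each), and with at least 10 VIM UMIs per 10000 (-0.45).

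The targets of BMP signalling were plentiful in members without a call. ID1, an inhibitor of differentiation that BMP signals induce, stood at 17.0 and 24.8 UMIs per 10000 in members against 1.43 and 13.3 in collagen-high cells, which is 11.9-fold in CT-LCG and 1.86-fold in FT-LCG (interval 1.49 to 2.32), short of the 2-fold limit. ID3 stood at 15.6 and 11.7 against 4.63 and 12.6, and ID2 at 11.6 and 4.16 against 12.5 and 4.25. The median log2 ratio of these 3 genes was 1.72 for CT-LCG and -0.02 for FT-LCG, and the genes differed, since ID3 was higher than in collagen-high cells for CT-LCG alone and the ID2 ratios of 0.933 (interval 0.720 to 1.22) and 0.977 (0.595 to 1.57) did not exclude equal levels.

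Of the growth factors, 3 of 14 were measured and none was called. IGF2, insulin-like growth factor 2, stood at 16.0 in CT-LCG members, where every cell had a UMI, and at 7.87 in FT-LCG members, where 8 of 9 did. Collagen-high cells had 0.356 and 7.22, so the ratio was 44.9-fold in CT-LCG (interval 12.4 to 372, against 2 UMIs) and 1.09-fold in FT-LCG (0.760 to 1.55). IGF1 stood at 3.95 and 4.90 against 1.96 and 0.642, that is 2.02-fold and 7.63-fold higher, and it was not called because the log2 ratio with 0.5 UMIs added to each count was 0.95 in CT-LCG.

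Of the binding proteins for these factors, IGFBP5 and IGFBP6 were scarce in members. IGFBP5 stood at 0.292 and 0.445 against 58.6 and 19.8 in collagen-high cells, which is 201-fold and 44.4-fold lower. IGFBP6 stood at 0.356 and 1.48 against 27.1 and 12.5, or 76.0-fold and 8.44-fold lower. IGFBP7 was present in 25 of 48 and 9 of 9 cells, at 2.27 and 7.12 against 0.891 and 12.2, above collagen-high cells in CT-LCG and below them in FT-LCG. Of the other growth factor receptors and binding proteins measured none was called, FGFR1 for example with 2.49 and 1.63 in members and 3.03 and 2.25 in collagen-high cells.

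Hedgehog, Notch and retinoid genes gave few calls. Besides HHIP, the hedgehog co-receptor GAS1 was measured and called lower, at 0.227 and 0.445 in members against 1.25 and 2.09, from 7 and 3 UMIs in members, and its FT-LCG log2 ratio in thinned cells was -0.97, just short of the call. HES1, the only Notch pathway gene measured, stood at 1.72 and 1.78 against 3.39 and 1.53. CRABP2, the second retinoic acid binding protein, was alike in both groups, at 6.90 and 6.83 in members and 8.37 and 6.82 in collagen-high cells, with ratios of 0.824 (interval 0.599 to 1.16) and 1.00 (0.683 to 1.45).

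The prolactin receptor PRLR was the hormone receptor that stood apart. It stood at 11.9 UMIs per 10000 in CT-LCG members, in 44 of 48 cells, and at 4.30 in FT-LCG members, in 8 of 9 cells. Collagen-high cells had 0.891 and 0.0803, so members were 13.4-fold higher in CT-LCG (interval 5.70 to 41.6) and 53.6-fold higher in FT-LCG (8.89 to 2190, against 1 UMI). Endothelial cells carried PRLR in 3 of 18 and 9 of 108 cells. Against all other kept cells, most of them keratinocytes, members were 9.57-fold and 3.60-fold higher, but the FT-LCG log2 ratio fell to 0.07 in thinned cells.

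Among transcription factors of mesenchyme and follicle 8 of 22 were measured, and SOX18 and TRPS1 were called higher, beside 8.18% of all genes measured, with the losses of both calls given above. TWIST1, a factor of embryonic mesenchyme, stood at 14.7 and 10.5 in members against 4.45 and 5.38 in collagen-high cells, and its 1.96-fold difference in FT-LCG fell just short. TWIST1 was found in 47 of 48 CT-LCG members. Among HOX genes, the regulators of position along the body, 18 of 37 had a UMI in members and the most abundant was HOXC6 in CT-LCG and HOXC9 in FT-LCG. HOXC6 was measured, at 0.810 and 0.890 in members against 0.356 and 0.803, and was not called.

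**Figure D3:**
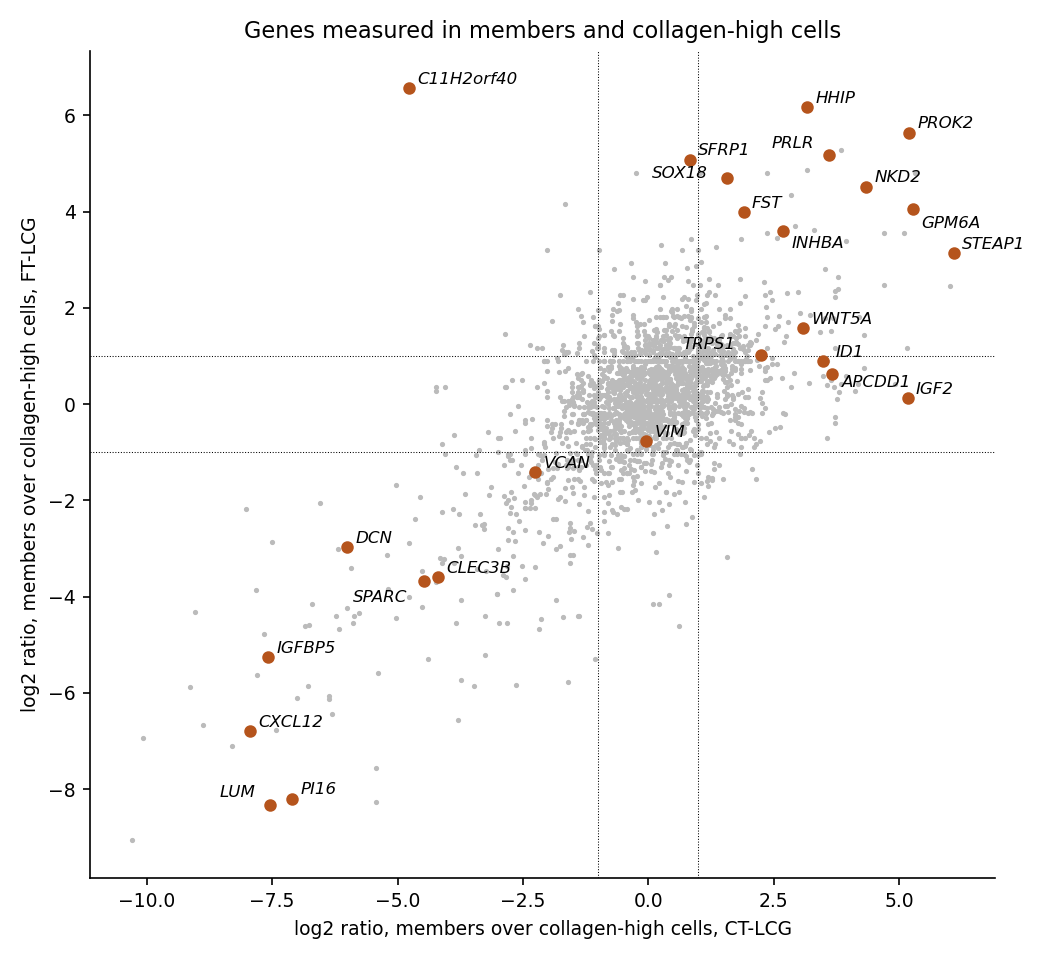
Log2 ratios of members over collagen-high cells for the 2212 genes measured, CT-LCG on the x axis and FT-LCG on the y axis, with 0.5 UMIs added to each count and dotted lines at 2-fold. HHIP, PRLR, NKD2, PROK2 and INHBA lie at upper right, LUM, CXCL12, IGFBP5 and DCN at lower left, and C11H2orf40 at upper left. LUM, PI16 and CXCL12 had no UMI in FT-LCG members, so their positions depend on the 0.5 that was added.

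Fibroblast and matrix genes were the groups with the most genes called lower. The comparison was with cells chosen for their collagens, so the direction partly follows from the choice. Of 11 fibroblast genes measured 9 were called lower and none higher, beside 10.4% and 8.18% of all genes measured, with a median log2 ratio of -5.44 in CT-LCG and -3.97 in FT-LCG, or -4.46 and -4.20 when genes without a UMI were put at the level of 3 counts. LUM, or lumican, had 4 UMIs in CT-LCG members and none in FT-LCG members, against levels of 27.1 and 24.0 in collagen-high cells, which is 209-fold lower in CT-LCG and at least 53.9-fold lower in FT-LCG. PI16 had no UMI in any member, against 12 and 271 UMIs in collagen-high cells.

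DCN, or decorin, stood at 2.33 in CT-LCG members against 151 in collagen-high cells, and at 9.65 against 75.7 in FT-LCG. All 65 DCN UMIs of the FT-LCG members lay in 1 cell, the deepest of them, and the other 8 cells had none. CLEC3B (12.5 and 9.05 against 228 and 110) and S100A4 (15.7 and 14.3 against 230 and 141) were also called lower. The S100A4 level of FT-LCG members came from 3 of 9 cells, and 2 cells under 10 VIM UMIs per 10000 held 83 and 12 of its 96 UMIs. VIM, or vimentin, the intermediate filament of mesenchymal cells, was not called. It stood at 75.0 and 39.6 in members against 77.0 and 67.3 in collagen-high cells, and at 80.8 and 147 in endothelial cells. The FT-LCG level of members pools 3 cells under 10 VIM UMIs per 10000, among them the deepest member, which had none. The median VIM level per member cell was 69.9 in CT-LCG and 62.2 in FT-LCG.

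Of the 16 proteoglycans and matrix glycoproteins measured, 11 were called lower and 1 higher, beside the same 10.4% and 8.18%, with median log2 ratios of -2.83 and -3.42. SPARC, an abundant collagen-binding matrix protein, stood at 2.37 and 4.90 in members against 52.9 and 63.7, or 22.4-fold and 13.0-fold lower. FBLN1, or fibulin 1, the most abundant of the list in CT-LCG members and second to DCN in FT-LCG members, was not called, with 3.69 and 8.31 against 11.04 and 8.51. The collagens outside the rule were mixed, with COL6A1, COL6A2, COL6A3 and COL5A2 of 8 measured called lower and COL23A1 called higher. The COL6A3 call was lost in FT-LCG with at least 10 VIM UMIs per 10000 in members (log2 ratio -0.72). COL23A1, a transmembrane collagen, stood at 2.01 and 1.48 against 0.178 and 0.0803, or 1 UMI in each library, while COL6A1 stood at 3.50 and 1.48 against 28.3 and 24.0.

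Genes outside the rule with at least 10 UMIs in members of each library were ranked by the ratio of the library where it was nearer to 1, and those with the largest ratios over collagen-high cells included secreted peptides and membrane proteins. PROK2, the secreted peptide prokineticin 2, stood at 3.27 and 1.93 and had no UMI in collagen-high cells of either library, so members were at least 6.12-fold and 8.01-fold higher. It had no UMI in endothelial or contractile cells either, and it was found in 38 of 48 CT-LCG members and 4 of 9 FT-LCG members. NPY, or neuropeptide Y, stood at 1.26 in 13 CT-LCG cells and at 1.48 in 2 FT-LCG cells, with no UMI in collagen-high cells.

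GPM6A, a membrane glycoprotein best known from neurons, stood at 3.43 and 1.93 against 0 and 0.0803. STEAP1, a membrane protein of the metalloreductase family, stood at 6.06 and 3.12 against 0 and 0.321, which is at least 11.3-fold in CT-LCG and 9.71-fold in FT-LCG (interval 3.28 to 38.9). CEBPA, a transcription factor of differentiation, stood at 2.62 and 6.38 against 0.178 and 0.482. Against all other kept cells the CEBPA ratio was 1.01 for CT-LCG members, with an interval of 0.799 to 1.25, and 3.61 for those of FT-LCG, with 2.61 to 4.86, so members stood above the rest of the skin in FT-LCG only. LOC102188072 was among the 15 largest ratios over collagen-high cells through the 0.5 UMIs added, with no UMI in CT-LCG collagen-high cells and a ratio of at least 1.03, and its FT-LCG level came from 3 cells. FILIP1L, MSANTD1 and CYSTM1 were also among the 15 largest, as were INHBA, HHIP, NKD2, PRLR and COL23A1.

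By the same ranking the 15 smallest ratios were led by SPARC, CLEC3B and GSN, although IGFBP6 and DCN had lower ratios in CT-LCG and COL6A1 in FT-LCG. GSN, or gelsolin, which severs actin filaments, stood at 4.50 and 3.71 against 77.7 and 37.4. S100A10 and CRIP1 were among them, CRIP1 with 3.86 and 1.78 against 18.5 and 19.4. The chemokine CCL26 (0.939 and 1.78 against 6.59 and 13.2), the tetraspanin CD9, galectin 3 (LGALS3) and the metalloproteinase inhibitor TIMP2 (4.99 and 3.86 against 35.4 and 16.2) were others.

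Against all other kept cells, 2190 genes were measured, and 292 (13.3%) were called higher and 208 (9.5%) lower. All 5 measured papilla genes outside the rule, VCAN included, were called higher, with a median log2 ratio of 7.005 for CT-LCG and 7.52 for FT-LCG, beside 0.11 and 0.30 for all genes. VCAN was thus higher in members than in the skin at large (63.2-fold and 38.3-fold) and lower than in collagen-high cells. Of the 8 matrix genes measured 6 were called higher and POSTN lower, and of the 8 collagens 7 were called higher and COL17A1, a collagen of basal keratinocytes, lower. Of 8 keratinocyte genes measured 7 were called lower. Members were chosen for low keratins and most of the other kept cells are keratinocytes, so the directions of these lists partly follow from the choice.

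Outside the genes of the rule, the largest ratios over the other kept cells, ranked in the same way, belonged to HHIP, PROK2, SPON1, NPY and IGF1. SPON1, the matrix protein spondin 1, stood at 1.43 and 2.08 in members and 0.00399 and 0.00258 in all other kept cells. IGF1 was 237-fold and 529-fold higher than in the other kept cells. TWIST1, PRRX2, a homeobox factor of mesenchyme, and SPON2 were also among the 15. None of the 3 was called against collagen-high cells, although TWIST1 was 3.31-fold (interval 2.21 to 5.17) and 1.96-fold (1.38 to 2.78) higher in members while for PRRX2 the ratios were 1.97 (1.14 to 3.70) and 0.826 (0.469 to 1.41). SPON2 stood at 9.46 and 8.31 in members against 9.09 and 19.8 in collagen-high cells.

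**Figure D4:**
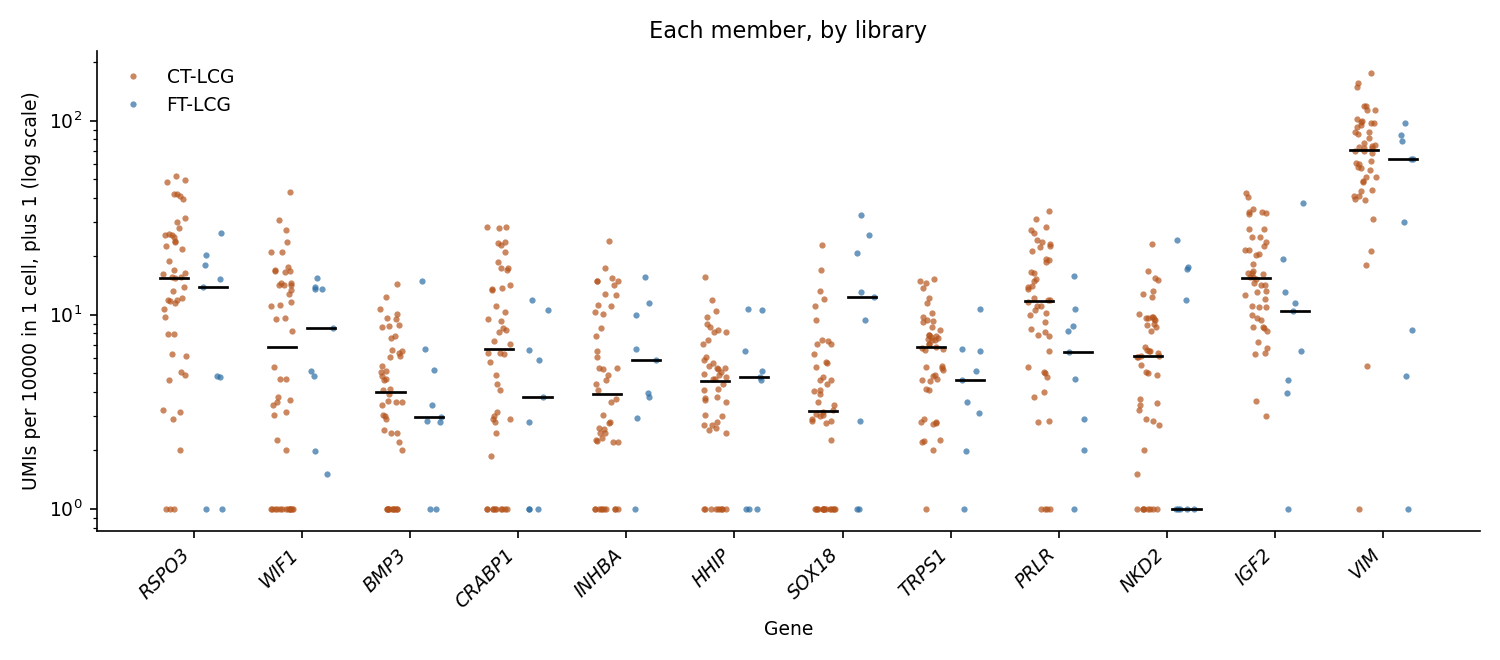
Levels of 12 genes in each member cell (UMIs per 10000 plus 1, log scale), CT-LCG and FT-LCG side by side, with black bars at the medians. INHBA had a UMI in 38 of 48 CT-LCG and 8 of 9 FT-LCG members, and the spread between cells of a library was wide for every gene shown.

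Cells within the group differed. In CT-LCG the lowest, median and highest level per cell was 0, 14.5 and 50.7 for RSPO3, 0, 2.88 and 23.0 for INHBA, 0, 10.8 and 33.4 for PRLR and 0, 69.9 and 176 for VIM. RSPO3 and INHBA did not move together, with a Spearman rho of -0.17 over the 48 cells of this library, a weak value in sparse counts. In 2 CT-LCG members VIM was under 10 per 10000, and 1 of them was the shallowest member, with 1473 UMIs. A CT-LCG member of 10007 UMIs also carried 38 UMIs of SRGN, 16 of CD3E, 2 of CD3D and 2 of PTPRC, genes of T cells and other leukocytes, beside 27 of CRABP1 and 7 of RSPO3, with none of INHBA.

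Of the 9 FT-LCG members 3 stood apart from the others in their genes. A cell of 5199 UMIs held the 131 UMIs of CXCL13, 188 of SPP1 (osteopontin), 301 of C11H2orf40 and 9 of FGF7 with only 2 of VIM, and a cell of 5431 UMIs held 117 of SPP1, 82 of C11H2orf40, 7 of FGF7 and 4 of VIM, with 7 of WIF1 and none of RSPO3. This second cell is the one that shares its barcode sequence with a CT-LCG cell. The deepest cell, of 19670 UMIs, had no UMI of VIM, RSPO3 or INHBA, and it held 98 of the hair keratin KRT35, 187 of the epithelial gene SFN and 65 of DCN with 11 of CRABP1 and 1 of WIF1. The label goes against the genes of this cell, and the calls are also given without the 3 cells, which all lay under 10 VIM UMIs per 10000.

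Without the members under 10 VIM UMIs per 10000, 46 CT-LCG and 6 FT-LCG cells remained, a choice made after the values were seen. Against collagen-high cells 214 genes were then called higher and 229 lower, with 141 and 193 of the original calls kept. The log2 ratio of INHBA was 2.70 for CT-LCG and 3.94 for FT-LCG, that of HHIP 3.19 and 6.27, and that of SOX18 1.58 and 5.55. Without the deepest cell alone, DCN in FT-LCG members lay below all other kept cells, with a log2 ratio of -1.95, whereas it lay above them with that cell included.

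Markers of other cell types were summed in the members. The 8 endothelial genes gave 0.0324 UMIs per 10000 in CT-LCG members and 0 in FT-LCG members, against 59.1 and 43.7 in endothelial cells, and the 9 genes of smooth muscle and pericytes gave 0.713 and 1.04 against 48.4 and 58.1 in contractile cells. The immune genes gave 2.37 and 0, most of it from the CT-LCG cell with CD3E, which reached 58.0. The melanocyte genes gave 0.486 and 0.297, all of it MITF, with PMEL, DCT, TYRP1, TYR, MLANA and KIT at 0, and the Schwann cell genes gave 0.0972 and 0, all of it S100B.

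Keratinocyte genes were present in every member, at least 3 UMIs in each. Their sum was 19.6 per 10000 in CT-LCG members and 53.0 in FT-LCG members. Contractile cells had 14.99 and 51.92, so the FT-LCG value of members was close to theirs. Endothelial cells had 18.6 and 25.6, collagen-high cells 13.5 and 25.9, and all other kept cells 253 and 243. LGALS7 and KRTDAP led in CT-LCG members and SFN in FT-LCG members, where the deepest cell held 187 of its 201 UMIs. Without that cell, a choice made after the values were seen, the FT-LCG sum was 14.7. Genes of hair matrix, shaft and inner root sheath summed to 4.83 and 18.9 in members. Of 127 such UMIs in FT-LCG 98 came from KRT35 in the deepest cell, and the sum was 3.14 without it. Collagen-high cells had 4.10 and 9.63, endothelial cells 6.52 and 199.9, contractile cells 4.4 and 23.1, and all other kept cells 8.49 and 23.6. The part of RNA from other cells, or of 2 cells in 1 droplet, in these values was not tested.

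Cell cycle genes summed to 1.23 and 1.93 UMIs per 10000 in members, against 1.91 and 2.78 in all other kept cells, and MKI67 had a UMI in 1 CT-LCG member and in none of the 9 FT-LCG members, which allows a share of cells with a UMI, not of cells that express it, of up to 33.3%. Genes of immediate early response and stress summed to 128 and 65.2 in members, against 106 and 95.6 in collagen-high cells. JUN was the most abundant in CT-LCG members, at 36.6, and JUNB in FT-LCG members, at 19.1. None of 9 measured was called against collagen-high cells.

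Whether members resembled each other outside the genes that chose them was described by the 20 nearest neighbours of each cell within its library, in 10 principal components computed without any gene of the rule. In CT-LCG 82.3% of the neighbours of members were members, where members were 1.39% of the cells. In FT-LCG 30.0% were, of at most 40% that 8 other members could give, where members were 0.0937% of the cells. Members were chosen for low keratins and most kept cells are keratinocytes, so shares above those of all cells partly follow from the choice. A member had at least 10 member neighbours in 45 of 48 cases in CT-LCG, and 1 member in each library had none.

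The remaining neighbours differed between the libraries. In CT-LCG 1.46% of the neighbours were collagen-high cells and 0.104% contractile cells, and in FT-LCG 4.44% and 22.8%, with no endothelial neighbour in either. Kept cells outside these groups were the largest part of the rest, 16.1% for CT-LCG and 42.8% for FT-LCG. In CT-LCG 18 cells that were no members had at least 10 member neighbours, 7 of them collagen-high, and 12 of the 18 had a UMI of a rule gene. Their levels were 3.45 for INHBA and 7.02 for PRLR, against 5.15 and 11.9 in members, with 177 for COL1A1. In FT-LCG 27 cells that were no members had at least 4 member neighbours, 4 of them collagen-high, and 18 of the 27 had no UMI of a rule gene. Their INHBA level was 0.554, at a median depth of 1627 UMIs and a median of 92.7 keratin UMIs per 10000.

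The members of both libraries were then set side by side over 1410 genes. The log2 levels with 1 added had a Pearson r of 0.84 across genes, which are not independent replicates, and the median log2 ratio of CT-LCG over FT-LCG was -0.11. By the 8 largest ratios each way, FT-LCG members were above CT-LCG members in CXCL13, SPP1, C11H2orf40, KRT35, TUBA1C, SERPINE2, LOC102188339 and LOC102180443. SPP1 stood at 45.3 in FT-LCG and 0.0324 in CT-LCG, and all 305 UMIs of FT-LCG lay in 2 of the 9 cells. LOC102180443 was found in all 9 cells, and its log2 ratio of -6.05 was close to the -6.63 of all other kept cells, so the difference was as large in the rest of the skin.

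**Figure D5:**
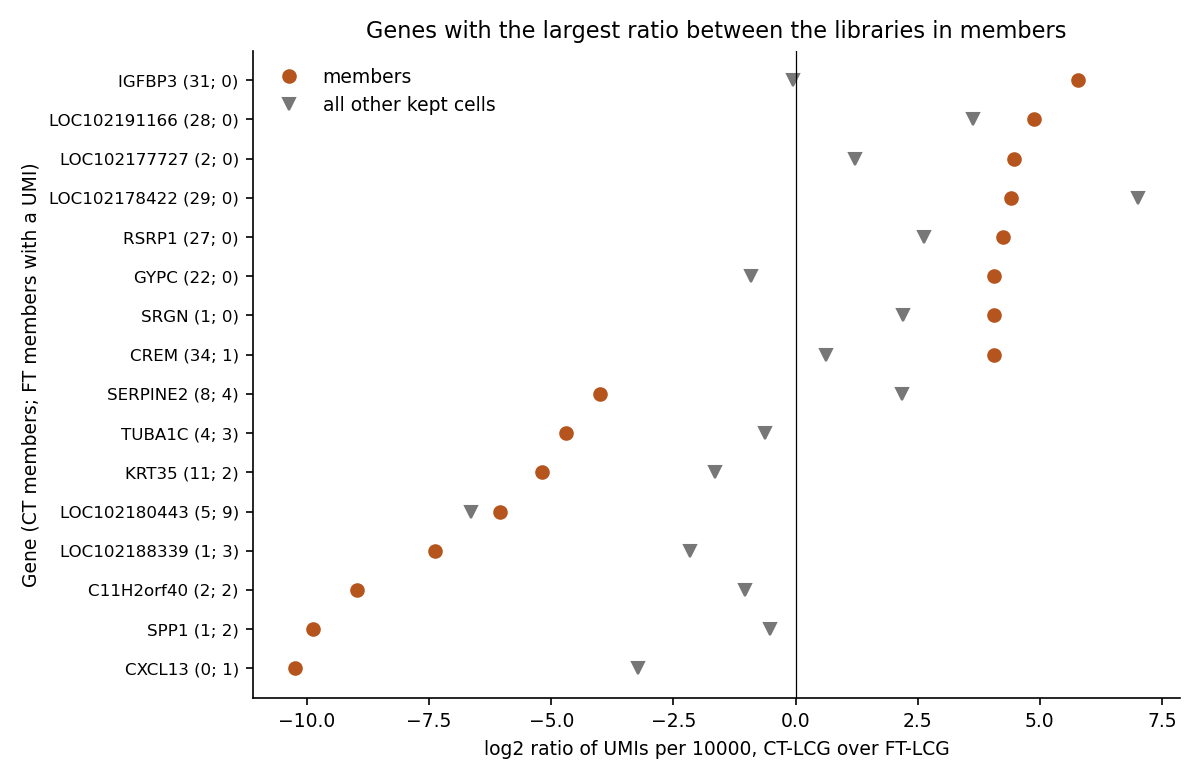
Log2 ratio of CT-LCG over FT-LCG for the 8 genes with the largest ratio each way in members and for the same genes in all other kept cells, with the number of member cells that had a UMI in brackets. Most genes that were higher in FT-LCG members rest on 1 to 4 cells, while IGFBP3 and CREM rest on 31 and 34 CT-LCG cells. The highest CT-LCG cell held 9.52% of the IGFBP3 UMIs and 25.1% of the CREM UMIs.

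Above FT-LCG in CT-LCG members were IGFBP3, CREM, GYPC, RSRP1, SRGN, LOC102191166, LOC102177727 and LOC102178422. In all other kept cells these genes, IGFBP3 and GYPC excepted, were also higher in CT-LCG, with log2 ratios of 7.002 for LOC102178422 beside 4.404 in members, 3.63 for LOC102191166 beside 4.88 and 2.63 for RSRP1 beside 4.25. IGFBP3, a carrier of insulin-like growth factors, had 126 UMIs in 31 of 48 CT-LCG cells and none in FT-LCG, 4.08 per 10000 and at least 9.17-fold higher than the level of 3 counts in FT-LCG members. Its log2 ratio between the libraries was 5.79 in members, 2.44 in members thinned to 1000 UMIs and -0.05 in all other kept cells. CREM, a transcription factor that responds to cyclic AMP, stood at 6.19 in 34 CT-LCG cells and at 0.297 in 1 FT-LCG cell, a log2 ratio of 4.06 beside 0.63 in all other kept cells. Of the 191 CREM UMIs of CT-LCG members, 48 lay in 1 cell. With 1 goat of each type and 9 cells in FT-LCG, these differences have no replicate check, and SRGN and LOC102177727 rested on 38 and 49 UMIs in 1 cell each.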

How the data were processed

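The authors made the count matrix of UMIs per gene and barcode with Cell Ranger, version 3.0.2 in the file header, and deposited it without normalization, with both libraries in 1 matrix of 27137 features and 17299 barcodes. The submitters' notes also name bcl2fastq and Seurat 3.1.1, and for the goat genome the build and gene models were not given in the sources used. The library and fibre type of each of 13051 kept cells came from a deposited table whose names could not be tied to a sample label, so the libraries were used under those names. The matrix held 0 mitochondrial features, and 27103 of the feature identifiers matched the RefSeq gene table. No doublet caller was run, and nothing in the labels or methods says that doublets were removed.

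Counts were summed over the cells of a group in each library and divided by the UMIs of the group. Intervals are exact Poisson for levels and Clopper-Pearson for shares, at 95%, and 3 counts set the limit of a count of 0. With 1 library per fibre type no test was run and no SE is given. Ratios had 0.5 UMIs added to each count where stated as log2 ratios, and folds were ratios of the levels. Endothelial and contractile cells had at least 3 UMIs of at least 2 of PECAM1, CDH5, PLVAP and VWF or of ACTA2, TAGLN, MYH11 and RGS5, under the same collagen and keratin limits, and 1 cell was in both groups. Principal components came from 2000 variable genes of log-normalized values.

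The members and the gene lists were chosen with earlier results of these data known, so no list is independent support. The text names the rule genes, the papilla list, up to 4 abundant and 4 large-ratio measured genes of each other list, the 15 largest and 15 smallest ratios against collagen-high cells, the 15 largest against all other kept cells, and the 8 largest each way between libraries, and some of these genes are not reported here. Genes named outside this rule were chosen after their values were seen, namely those at 0 or listed by call, CD3E, CD3D, PTPRC, MKI67 and those of the last section. Alternatives were other limits of the rule, thinned cells, means over cells, free RNA at 10% of each cell subtracted, other filters, 1 library alone and other neighbour settings. Steps were tested on simulated data. Variable genes and components came from scanpy 1.11.5 and scikit-learn 1.9.0, intervals from scipy 1.17.1 and tables from pandas 2.3.3 and numpy 2.4.6, under Python 3.11.15, with matplotlib 3.10.9 for the plots.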

Additional observations from a re-analysis of the deposited data

Results flagged for a closer look

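In 4 of the genes named and measured outside the rule the members lay above the collagen-high cells in one library and below them in the other, with counting intervals that excluded equal levels in both. The difference between the libraries was not tested, since each has 1 goat. For IGFBP7, an insulin-like growth factor binding protein, the log2 ratio was 1.22 in CT-LCG (2.27 UMIs per 10000 in members against 0.891) and -0.77 in FT-LCG (7.12 against 12.2). For TCF4, a transcription factor of mesenchyme, it was 1.26 (4.89 against 1.96) and -1.53 (3.41 against 10.0). For DNAJB1, a heat shock chaperone, it was 1.28 (7.55 against 3.03) and -1.57 (4.30 against 13.0).

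C11H2orf40 had the widest gap, with a log2 ratio of -4.78 in CT-LCG, from 3 UMIs in members, and 6.56 in FT-LCG, from 383 UMIs. The FT-LCG value rests on 2 cells, which held 301 and 82 of these UMIs.

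Rule genes were also counted in barcodes that the authors did not keep. There were 38 UMIs among 2659 such barcodes of CT-LCG and 21 among 1589 of FT-LCG, or 0.192 and 0.211 per 10000, against 0.0533 and 0.0537 in the kept cells that are no members. No such barcode passed the rule, and the highest held 2 UMIs for CT-LCG and 4 for FT-LCG. Of the rule UMIs of all kept cells, members held 89.2% in the CT-LCG library and 38.2% in the FT-LCG library.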

How the results depend on the processing

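With 1 library per fibre type, 9 FT-LCG members and 9 CT-LCG collagen-high cells, counts limit every ratio. The number of members ranged from 34 to 54 for CT-LCG and from 6 to 11 for FT-LCG under other limits of the rule. With the rule applied to cells thinned to 1000 UMIs, 26 and 5 cells passed. At a filter of 0.2 UMIs per 10000, 330 genes were called higher and 396 lower than in collagen-high cells, and at a filter of 1, 92 and 136. Against all other kept cells these numbers were 781 and 361 at 0.2, and 117 and 119 at 1. Calls from 1 library alone gave 435 to 462 genes higher and 373 to 440 lower than in collagen-high cells, and 398 to 488 higher and 286 to 390 lower than in all other kept cells, because a call then needs 1 library in place of both. In thinned cells the numbers of calls stayed within 1.5 times, but only 71 of the 181 higher and 139 of the 230 lower genes were the same, and the cause was not tested. The share of member neighbours was 47.8% in FT-LCG with 10 neighbours and 85.2% in CT-LCG with 20 components.

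Among single genes with a call, 941 of the values recomputed against collagen-high cells kept their direction and side of 2-fold and 19 fell short of it. Against all other kept cells 1181 did, 15 fell short and 4 reversed. The 941 and 1181 include the values under other filters, which choose the genes measured and leave each ratio unchanged. Those values could not move, so they say nothing about stability. Genes that gained a call under another setting were not counted here. The log2 ratio of DCN in FT-LCG members reversed to -1.95 without the deepest 5% of cells and with at least 5 rule UMIs and 3 rule genes, and to -1.59 with at least 10 VIM UMIs per 10000. With that VIM limit S100A4 in FT-LCG reversed to -2.77. DCN in FT-LCG came from 1 cell, which these alternatives leave out, and 83 and 12 of the 96 UMIs of S100A4 from 2 cells that the VIM limit leaves out. Between the libraries 34 values stayed close and 14 moved.

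Members without any cell that holds 3 or more UMIs of the endothelial, contractile, immune, keratinocyte or hair list could not be analysed, since all 48 and 9 members hold them. The removal of cells with 3 or more endothelial, contractile or immune UMIs, the VIM limit and the marker sums without the deepest FT-LCG member were added after seeing the data. No paired analysis was possible because both samples belong to 1 group and no test was run.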

Other observations

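Several genes of hair growth signals that fall outside the naming rule were looked up after the values were seen. CXCL14, a chemokine of epithelium and stroma, stood at 52.8 UMIs per 10000 in CT-LCG members, in 47 of 48 cells, and at 89.0 in FT-LCG members. Collagen-high cells held 3.74 and 16.9, and endothelial cells 0.186 and 0.279. The log2 ratio of CXCL14 over all other kept cells was 6.12 for CT-LCG and 4.33 for FT-LCG.

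DKK2, a secreted Dickkopf protein that modulates Wnt co-receptors, had 73 UMIs in 26 of 48 CT-LCG members and 1 UMI in FT-LCG members, or 2.37 and 0.148 per 10000. Collagen-high cells had no UMI of DKK2 in CT-LCG and 8 in FT-LCG. NOTUM, an enzyme that inactivates Wnt proteins, stood at 0.875 and 0.742 in members of CT-LCG and FT-LCG, with no UMI in the CT-LCG collagen-high cells and 0.401 in those of FT-LCG. PDGFRA, the platelet-derived growth factor receptor of dermal mesenchyme, was found in 29 of 48 CT-LCG members at 2.46 per 10000 and had 1 UMI in FT-LCG members, while collagen-high cells held 1.78 and 3.45. FGF2 stood at 1.94 and 0.594 in members against 0.178 and 0.161, and GDF10, a ligand of the transforming growth factor beta family, at 0.583 and 1.04 against 0 and 0.0803. These values were not tested.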
